A study of Homo sapiens with 12 samples.

Results

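Interferon-stimulated genes are the genes that cells switch on after they sense type I, II or III interferon. The 47 genes described here are commonly used members of this set. They were taken from a list of gene symbols and matched through Ensembl identifiers to the rows of the count table, where each symbol found exactly 1 of 58884 rows. RNA was sequenced from U2932 and TMD8, established human cell lines of diffuse large B-cell lymphoma (DLBCL). The methods of the study place both in the activated B-cell-like subtype, while a figure legend of the study lists U2932 in the germinal center B-cell subtype. Cultures of each line received 20 µg/mL of rituximab (R), ofatumumab (OF) or a human IgG1 isotype control for 4 h. R and OF are antibodies against CD20, a surface protein of B cells encoded by MS4A1, and the isotype control is an antibody of the same class without that target. Each line was split into 2 cultures kept apart for a week, which gave 2 replicates of each of the 6 conditions and 12 libraries in all. Every culture carried the line's own genotype with no engineered change, and no untreated culture was sequenced, so each antibody effect is a difference from isotype. All cells were 1 cell line grown alone, without the immune cells that anti-CD20 antibodies engage in a patient.

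Interferon receptors signal through the kinases JAK1 and TYK2, which activate STAT transcription factors. The factor ISGF3, which holds STAT2 and IRF9, binds the interferon-stimulated response element (ISRE), while the signal of interferon gamma acts through the gamma-activated site (GAS). The genes switched on encode antiviral effectors, RNA and DNA sensors, and regulators that amplify or end the signal. In the activated B-cell-like subtype of DLBCL, signalling through the adaptor MYD88 is known to drive interferon and JAK-STAT activity.

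The promoters of several members carry these elements, and 6 are shown because they belong to the genes whose levels the comparisons turn on, or, for IRF1, because the stretch holds a GAS and no ISRE. The sequences are from RefSeq (GRCh38.p14), read 5′ to 3′ on the strand of the gene, from 170 bases before the RefSeq start of the transcript to that start, or shorter where GENCODE 29 begins the first exon earlier, so that at most 20 bases of annotated exon are included. Capitals mark ISRE matches (TTTC, any 2 bases and TTTC, on either strand) and GAS matches (TTC, any 3 bases and GAA, a pattern that is the same on both strands), and overlapping matches run together.
IFIH1 (chr2:162318685-162318854, minus strand): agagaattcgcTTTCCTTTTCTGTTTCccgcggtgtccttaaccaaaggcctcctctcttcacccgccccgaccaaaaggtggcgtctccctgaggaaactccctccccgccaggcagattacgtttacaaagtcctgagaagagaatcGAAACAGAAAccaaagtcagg
IFI44L (chr1:78620278-78620401, plus strand): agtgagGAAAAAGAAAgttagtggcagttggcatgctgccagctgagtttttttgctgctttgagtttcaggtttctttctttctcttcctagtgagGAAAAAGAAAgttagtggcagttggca
DDX60 (chr4:168318788-168318922, minus strand): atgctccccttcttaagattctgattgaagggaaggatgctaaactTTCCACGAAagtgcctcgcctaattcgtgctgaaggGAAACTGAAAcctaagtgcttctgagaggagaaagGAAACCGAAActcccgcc
IFIT1 (chr10:89392453-89392565, plus strand): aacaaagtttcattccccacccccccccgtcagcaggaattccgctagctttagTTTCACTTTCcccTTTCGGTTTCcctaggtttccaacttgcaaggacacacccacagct
BST2 (chr19:17405631-17405800, minus strand): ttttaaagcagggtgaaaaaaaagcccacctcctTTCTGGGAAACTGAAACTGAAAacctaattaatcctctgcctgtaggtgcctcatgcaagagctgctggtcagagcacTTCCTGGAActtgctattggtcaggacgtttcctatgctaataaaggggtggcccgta
IRF1 (chr5:132490779-132490943, minus strand): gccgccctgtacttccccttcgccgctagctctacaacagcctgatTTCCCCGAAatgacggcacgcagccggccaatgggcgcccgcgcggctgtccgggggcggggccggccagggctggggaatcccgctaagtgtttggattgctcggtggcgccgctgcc
The stretch of BST2 holds both kinds of match, and the first of its GAS matches overlaps the ISRE matches. In the IFI44L stretch, the same 10 bases match the ISRE at 2 places.

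Promoter sequences were found for 36 of the 47 members, and were not given for LY6E, USP18, OASL, OAS2, MX2, GBP2, TRIM22, IRF7, IFIT2, ZBP1 and IFITM2. In windows from 250 bases before to 50 bases after a start, 25 of the 36 members (69.4%) had an ISRE match, against 4.38% of the 27305 genes with such a window. A GAS match was found in 9 of the 36 members, against 9.38% of all these genes. These are matches to letters and not measured binding. Many members lie in clusters of related genes. IFIT1, IFIT2, IFIT3 and IFIT5 lie within chr10:89283694-89421001, and OAS1, OAS2, OAS3, OASL and STAT2 are on chromosome 12. MX1 and MX2 are on chromosome 21 and SAMD9 and SAMD9L on chromosome 7.

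Levels are given as CPM, the counts of a gene scaled to a common library total, after TMM normalization, a scaling by edgeR that makes libraries of different size and composition comparable. Library totals were 15440226 to 27110612 counts. Changes are log2 fold changes with their standard error (SE) from edgeR's quasi-likelihood test, and adjusted p-values are Benjamini-Hochberg values over all genes tested. Genes were called where the adjusted p was under 0.10 and the change reached 1.5-fold in either direction. For R against OF in U2932, the limit was 0.30. Both lines expressed all 6 B-cell markers checked, while 13 markers of T cells, NK cells, monocytes and plasmacytoid dendritic cells reached at most 2.45 CPM in any library. The summed level of the B-cell markers moved with treatment, from 1870 to 1890 CPM with isotype to 2790 to 3000 CPM with R and OF in U2932, and from 2440 to 2460 CPM to 3160 to 3640 CPM in TMD8. Ribosomal protein genes moved with treatment in U2932, taking 4.44% to 4.74% of counts with isotype and 6.03% to 6.56% with R and OF. Among the TMD8 libraries, the second replicates of OF and of isotype differed from the rest, with 3.73% and 3.99% of counts on mitochondrial genes against 5.70% to 6.23%, and 7.16% and 6.50% on ribosomal protein genes against 10.0% to 10.8%. Results in TMD8 are therefore given with and without these 2 libraries. What part any of these differences has in the changes of the members was not tested, and in bulk samples fewer cells that express a gene and less RNA per cell cannot be told apart.

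With isotype, TMD8 expressed the interferon-stimulated genes at far higher levels than U2932. The median level of the 47 members was 73.1 CPM in TMD8 and 4.43 CPM in U2932, and their levels summed to 4687 to 4779 CPM against 1085 to 1147 CPM. In TMD8, 41 of the 47 members had a mean of at least 1 CPM, compared with 31 in U2932. Counted over all 47 members without a filter, both TMD8 libraries were above both U2932 libraries for 40 members, where 29.2% of genes with a count in any isotype library did the same. The opposite held for 4 members, ISG20, IRF1, GBP2 and CMPK2, against 29.9% of those genes, and CMPK2 rested on 4 counts in U2932 and 0 in TMD8.

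Of the 42 members with enough counts to test over all 12 libraries, 38 were called higher in TMD8 (28.0% of all 16187 genes tested) and 3 higher in U2932 (28.1% of all genes). Members that are near 0 in U2932 entered the test through TMD8 only, so this count is a description. Among the 35 members that also had enough counts within U2932 alone, the fitted level of 32 was higher in TMD8, and the median over the 35 was 6.0-fold. The 1 member tested that was not called, STAT2, a partner in ISGF3, had 73.7 and 74.7 CPM in U2932 and 81.6 and 116.9 CPM in TMD8, and its log2 difference of U2932 minus TMD8 of −0.42 (SE 0.19, adjusted p = 0.0693 by edgeR) was under 1.5-fold. Without the second replicates of OF and isotype in TMD8, 39 of 43 members tested were called higher in TMD8 (26.3% of all genes) and 2 higher in U2932 (28.8%).

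**Figure D1:**
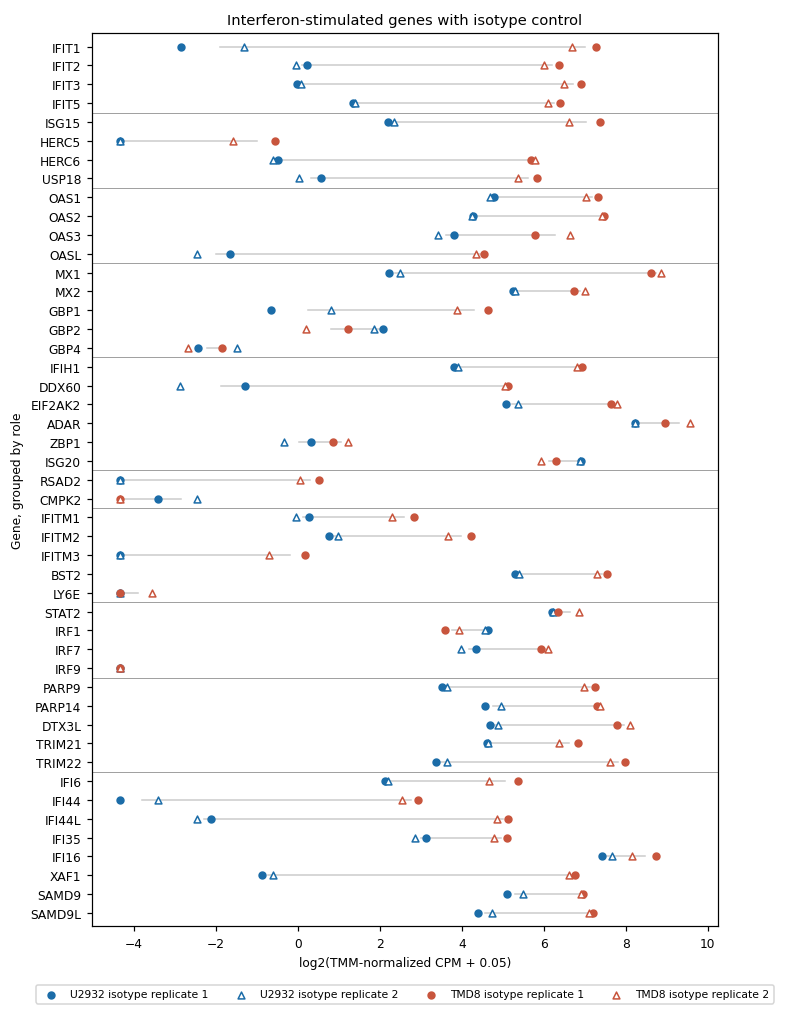
Levels of the 47 interferon-stimulated genes in the isotype libraries, as log2 of TMM-normalized CPM plus 0.05, with U2932 in blue and TMD8 in red, replicate 1 as filled circles and replicate 2 as open triangles, and a grey line between the means of the lines. Genes are grouped by role, and both TMD8 libraries lie to the right of both U2932 libraries for 40 of the 47 members.

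The IFIT proteins, which bind viral RNA and block its translation, showed a wide gap, with a median log2 difference of U2932 minus TMD8 of −6.45. IFIT1 had 0.0895 and 0.351 CPM in U2932 and 153.3 and 102.7 CPM in TMD8. IFIT3 had 0.940 and 1.01 CPM against 120.0 and 90.4 CPM, and IFIT2 had 1.12 and 0.920 CPM against 82.0 and 64.2 CPM. The libraries of the lines were far apart for each of these genes, with log2 differences of −9.13 (SE 0.37), −6.74 (SE 0.27) and −6.15 (SE 0.29). IFIT5 differed by −4.90 (SE 0.18), and the adjusted p-values by edgeR of the 4 genes were 3.22e-09 to 1.38e-08.

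The genes of ISG15 conjugation followed. ISG15 is a ubiquitin-like protein, HERC5 its main ligase, HERC6 a related ligase, and USP18 removes ISG15 and dampens interferon receptor signalling. ISG15 had 4.52 and 5.0 CPM in U2932 and 164.1 and 98.1 CPM in TMD8 (log2 difference −4.78, SE 0.26, adjusted p = 4.35e-08 by edgeR). USP18 differed by −5.35 (SE 0.26) and HERC6 by −6.35 (SE 0.19). HERC5 had 0 counts in the U2932 isotype libraries and 19 in TMD8, which made it at least 6.26-fold higher in TMD8 against a floor of 3 counts over the 2 libraries.

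Each of the 2-5A synthetase genes, which sense double-stranded RNA and activate RNase L, was called higher in TMD8. OAS2 had 19.2 and 19.1 CPM in U2932 and 176.1 and 171.8 CPM in TMD8, a log2 difference of −3.18 (SE 0.13, adjusted p = 6.02e-09 by edgeR). OAS1, OAS3 and the catalytically inactive relative OASL differed by −2.45 (SE 0.14), −2.65 (SE 0.30) and −6.72 (SE 0.31). Among the GTPases, MX1, which traps viral nucleocapsids, had 4.66 and 5.61 CPM in U2932 and 393.4 and 463.2 CPM in TMD8 (−6.38, SE 0.20). MX2 differed less, by −1.61 (SE 0.14), and the guanylate-binding protein GBP1 by −4.08 (SE 0.42). GBP2 went the other way, with 4.16 and 3.59 CPM in U2932 against 2.29 and 1.10 CPM in TMD8 (1.25, SE 0.31, adjusted p = 0.00501 by edgeR).

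The RNA sensor IFIH1 (MDA5) had 14.1 and 14.9 CPM in U2932 and 122.1 and 112.1 CPM in TMD8, a log2 difference of −3.02 (SE 0.13, adjusted p = 6.79e-09 by edgeR). DDX60, a helicase that acts beside the RNA sensors, differed by −7.23 (SE 0.40), and the kinase EIF2AK2 (PKR), which stops translation on sensing double-stranded RNA, by −2.48 (SE 0.16). The RNA editing enzyme ADAR was abundant in both lines, with 300.2 and 297.9 CPM in U2932 and 498.7 and 751.6 CPM in TMD8. The exonuclease ISG20 was the most abundant member that was higher in U2932, with 119.0 and 117.2 CPM against 78.7 and 61.4 CPM (0.75, SE 0.15, adjusted p = 0.00127 by edgeR). Without TMD8 isotype replicate 2, its difference was 0.58 (SE 0.16, adjusted p = 0.00747), which was under 1.5-fold.

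The membrane proteins that block virus entry or release were again higher in TMD8. BST2 (tetherin) had 39.2 and 42.0 CPM in U2932 and 187.2 and 157.6 CPM in TMD8 (−2.09, SE 0.15, adjusted p = 4.06e-07 by edgeR). IFITM1 and IFITM2 differed by −2.49 (SE 0.37) and −3.11 (SE 0.26). These neighbouring genes share 32.5% and 22.7% of their exon bases with other genes, so reads may have been split between them. IFITM3 had 0 counts in U2932 and 35 in TMD8 with isotype (at least 11.5-fold), and the antiviral enzyme RSAD2 (viperin) had 0 and 52 (at least 17.1-fold). IFI44 had 1 and 297 counts, a ratio of 294 with an exact 95% interval of 52.3 to 11640 for counting error only.

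Among the transcription factors, IRF1, which responds to interferon gamma through a GAS, was higher in U2932, with 24.7 and 23.6 CPM against 12.1 and 15.2 CPM (0.82, SE 0.14, adjusted p = 0.00044 by edgeR). IRF7, which amplifies type I interferon production, had 20.4 and 15.9 CPM in U2932 and 61.1 and 69.0 CPM in TMD8 (−1.84, SE 0.17). IRF9 was listed at 0 in all 12 libraries. Its neighbour RNF31, a widely expressed ubiquitin ligase, was also listed at 0, and so was a readthrough transcript that overlaps both genes, so the zeros cannot be read as absence of IRF9 RNA. IRF9 shares 48.4% of its exon bases with genes on the same strand. LY6E, GBP4 and CMPK2 had too few counts in either line for a test.

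Members were also ranked by level per kilobase of exon, with the exons of every annotated transcript of a gene counted. This length was 1119 bases for BST2 and 7363 bases for ISG20, so the order depends on the annotation as well as on RNA levels. By this measure, BST2 was first in both lines, with 36.3 CPM per kb in U2932 and 154 CPM per kb in TMD8. In U2932 its library values overlapped those of IFI16 (35.4 CPM per kb), a DNA sensor, and ADAR (30.9) and ISG20 (16.0) came next without overlap. In TMD8, BST2 overlapped ISG15 (139 CPM per kb), which stood above IFI16 (67.0), ADAR (64.5) and the antibody-binding ubiquitin ligase TRIM21 (51.1), each of which overlapped the next. ISG15 was 11th of 47 in U2932, with 5.06 CPM per kb, and IFIT1 was 13th in TMD8, with 27.8 CPM per kb, against 0.0477 CPM per kb in U2932.

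From a list of 80 further genes of the pathway, 65 were tested. The list holds ligands, receptors, kinases, factors, sensors, adaptors, negative regulators and further interferon-induced genes. Of the 65, 41 were called higher in TMD8 (28.0% of all 16187 genes) and 5 higher in U2932 (28.1%). Their median log2 difference was −1.34 (all genes −0.02). The upstream genes on the list were not uniformly higher in TMD8. None of the 10 interferon genes on the list passed the count filter in either line, and IFNB1, which encodes interferon beta, had at most 0.400 CPM in any library. The receptor chain IFNAR1 was level between the lines, at 67.2 and 67.9 CPM in U2932 and 68.0 and 66.9 CPM in TMD8 (log2 difference 0.00, SE 0.11). IFNAR2, its partner, was lower in U2932 (log2 difference −1.67, SE 0.13). The interferon lambda receptor IFNLR1 and the B-cell factor IRF8 were higher in U2932, by 2.47 (SE 0.21) and 3.20 (SE 0.16), with adjusted p-values of 1.25e-06 and 2.48e-08 by edgeR. MYD88 had 33.6 and 35.1 CPM in U2932 and 102.8 and 109.3 CPM in TMD8 (−1.63, SE 0.12).

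The next question was how R and OF moved these genes within 4 h. The comparisons of R and of OF with isotype use the same isotype libraries, so the values of the antibodies are set side by side and are not independent of each other. In TMD8, most members were lower with either antibody than with isotype. With R, 33 of the 42 members tested had a negative log2 change, with a median of −0.49 (all genes −0.02). With OF, 37 of 42 did, with a median of −0.60 (all genes −0.01). The summed level of the 47 members was 4687 to 4779 CPM with isotype, 3608 to 3910 CPM with R and 3251 to 3525 CPM with OF, without overlap between isotype and either antibody.

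Few of these changes passed the test. R lowered 2 members, IFIH1 and OASL, and raised 0, where 0.246% of all 14227 genes tested were called lower and 0.401% higher. OF lowered 8 members, IFIH1, OASL, IFI44L, USP18, XAF1, OAS2, DDX60 and IFIT5, and raised 0, where 0.344% of all genes were called lower and 0.471% higher. An unadjusted p under 0.05 in either direction was found for 21 members with R and 25 with OF, where 15.9% and 14.1% of all genes had one. With a term for the replicate number (replicate block), which compares each treated library with the isotype library of the same replicate number, edgeR called 17 members lower and 2 higher with R (5.96% and 5.04% of all genes) and 20 lower and 1 higher with OF (4.58% and 5.17%). DESeq2, run without the count filter, called 14 members with R and 16 with OF in either direction. That was beside 2.05% and 1.58% of 26975 genes, which include genes with too few counts for the edgeR test, so these shares are not on the same base. Without the block, the counts depended on single libraries, and so did those over all genes. With 1 library left out, which leaves 1 in its group, the median change of the members tested stayed negative. For R, it was −0.52 and −0.45 without R replicates 1 and 2, and −0.42 and −0.51 without isotype replicates 1 and 2. For OF, it was −0.66 and −0.63 without OF replicates 1 and 2, and −0.46 and −0.69 without isotype replicates 1 and 2.

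Without the second replicates of OF and isotype, in a fit of the other 10 libraries, 19 members were called lower and 1 higher with R (5.45% and 6.62% of all genes), and 21 lower and 1 higher with OF (4.8% and 6.0%). The one called higher was IFITM2 with both antibodies. In that fit, OF and isotype in TMD8 each rested on 1 library, which was assumed to vary like the other groups.

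IFIH1 had 122.1 and 112.1 CPM with isotype, 54.6 and 52.0 CPM with R, and 46.6 and 52.2 CPM with OF. All 4 treated libraries lay far under both isotype libraries, and R and OF overlapped each other. Its log2 changes were −1.13 with R (SE 0.15, adjusted p = 0.0717 by edgeR) and −1.24 with OF (SE 0.15, adjusted p = 0.0851). OASL had 23.1 and 20.3 CPM with isotype, 6.76 and 8.76 CPM with R, and 7.76 and 8.25 CPM with OF. Its libraries with R and OF overlapped each other and were far from isotype, with changes of −1.47 (SE 0.21, adjusted p = 0.072 by edgeR) and −1.43 (SE 0.21, adjusted p = 0.0908).

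IFI44L, a feedback regulator of the interferon response, had 35.0 and 29.2 CPM with isotype, 11.1 and 14.5 CPM with R, and 7.62 and 11.5 CPM with OF. OF lowered it by the widest margin of the 8, with a log2 change of −1.74 (SE 0.26, adjusted p = 0.0908 by edgeR), and the change with R was −1.32 (SE 0.25, adjusted p = 0.104). USP18 had 57.1 and 41.5 CPM with isotype, 22.1 and 24.9 CPM with R, and 17.0 and 22.0 CPM with OF. The isotype libraries differed more from each other than those of either antibody did, and the change was −1.33 with OF (SE 0.22, adjusted p = 0.095) and −1.06 with R (SE 0.22, adjusted p = 0.122).

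XAF1, a pro-apoptotic partner of the inhibitor XIAP, had 108.8 and 98.4 CPM with isotype, 41.3 and 54.9 CPM with R, and 38.0 and 46.9 CPM with OF. Its change with OF was −1.28 (SE 0.20, adjusted p = 0.0935 by edgeR), and 38.3% of its exon bases lie opposite another gene, whose reads cannot be told apart if counting did not use strand. OAS2 had 176.1 and 171.8 CPM with isotype, 99.4 and 113.3 CPM with R, and 81.9 and 89.8 CPM with OF. All 3 groups were apart, in the order isotype, R, OF, and the change with OF was −1.01 (SE 0.15, adjusted p = 0.0935 by edgeR).

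DDX60 had 35.0 and 33.4 CPM with isotype, 23.0 and 22.8 CPM with R, and 17.7 and 17.3 CPM with OF. IFIT5 had 84.4 and 68.3 CPM, then 41.4 and 51.5 CPM, then 36.5 and 36.1 CPM. Both genes showed the same order without overlap, and OF lowered them by 0.96 (SE 0.15, adjusted p = 0.0935 by edgeR) and 1.07 (SE 0.19, adjusted p = 0.0989) on the log2 scale. Across the 17 alternative fits, the log2 changes of the 8 genes with OF stayed between −2.19 and −0.88, and each gene was called in 10 to 12 of them.

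**Figure D2:**
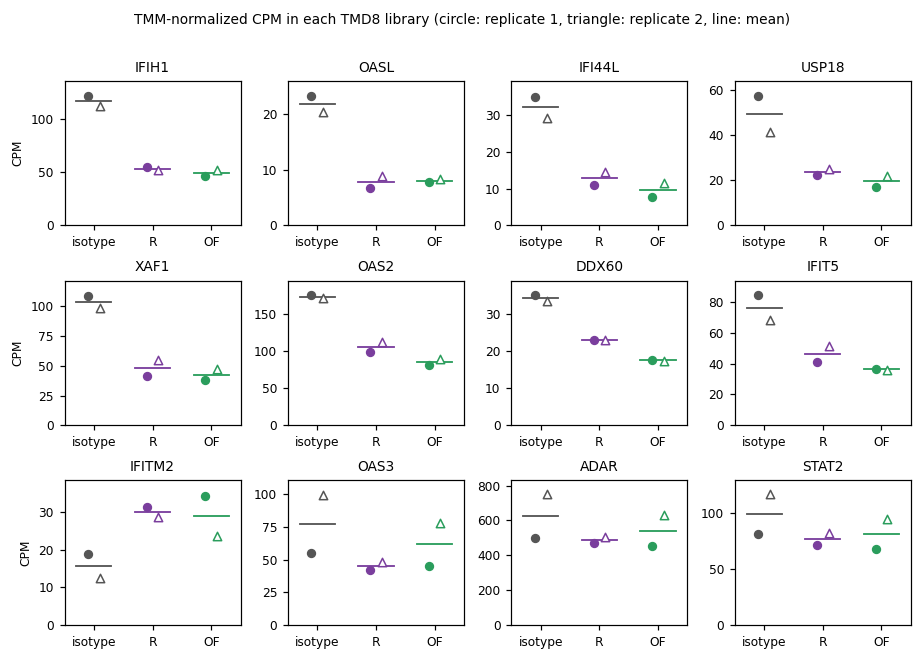
TMM-normalized CPM of 12 interferon-stimulated genes in each TMD8 library, with isotype in grey, R in purple and OF in green, replicate 1 as filled circles, replicate 2 as open triangles and the mean as a line, on axes that start at 0. The first 8 genes are those that OF lowered, in which every treated library lies under both isotype libraries. IFITM2 lies the other way, and OAS3, ADAR and STAT2 are high in isotype replicate 2 and OF replicate 2.

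The other IFIT genes moved alongside without passing the test. IFIT1 had 153.3 and 102.7 CPM with isotype, 59.8 and 78.6 CPM with R, and 56.2 and 49.8 CPM with OF, so no treated library reached either isotype library. Its changes were −0.88 (SE 0.25, adjusted p = 0.172 by edgeR) and −1.27 (SE 0.25, adjusted p = 0.115). With the replicate block, IFIT1, IFIT2, IFIT3 and IFIT5 were each called lower with R and with OF, with log2 changes of −0.98 to −0.71 and −1.45 to −1.06 and adjusted p-values of 0.0288 to 0.0400 and 0.00988 to 0.0147 by edgeR.

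ISG15 had 164.1 and 98.1 CPM with isotype, 62.9 and 80.5 CPM with R, and 80.3 and 64.2 CPM with OF. The isotype libraries were far apart, and the changes of −0.87 (SE 0.28) and −0.86 (SE 0.28) had adjusted p-values of 0.225 and 0.253 by edgeR. With the block they were 0.0560 and 0.0573, at changes of −0.82 and −0.84. MX1 had 393.4 and 463.2 CPM with isotype, 236.0 and 282.3 CPM with R, and 222.8 and 266.5 CPM with OF, a change of −0.72 and −0.80 (both SE 0.19, adjusted p = 0.159 and 0.151). IRF7 had 61.1 and 69.0 CPM, then 27.1 and 35.1 CPM, then 36.0 and 41.1 CPM. It was the only member whose R libraries were both under both OF libraries, and its change with R was −1.06 (SE 0.18, adjusted p = 0.101).

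Some members stood apart from this pattern. IFITM2 had 18.8 and 12.5 CPM with isotype, 31.4 and 28.6 CPM with R, and 34.4 and 23.7 CPM with OF. Every treated library was above both isotype libraries, with changes of 0.95 (SE 0.27, adjusted p = 0.179 by edgeR) and 0.90 (SE 0.27, adjusted p = 0.211), and the block called it higher with both antibodies (adjusted p = 0.0104 and 0.0156). GBP2 had 2.29 and 1.10 CPM with isotype and 3.25 and 3.29 CPM with R, and the block called it higher with R by 1.04 (SE 0.32, adjusted p = 0.077 by edgeR). MX2 had 107.0 and 128.0 CPM with isotype, 147.1 and 155.3 CPM with R, and 137.4 and 160.1 CPM with OF. Its treated libraries did not overlap isotype, but its changes of 0.37 and 0.35 were under 1.5-fold and did not pass the limit on the adjusted p.

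For a further group, levels differed between replicates as much as between treatments. OAS3 had 55.2 and 99.1 CPM with isotype, 42.2 and 48.5 CPM with R, and 45.4 and 77.6 CPM with OF, so replicate 2 was the higher one in each pair. ADAR and STAT2 had the same shape, and their changes were −0.37 to −0.20 (SE 0.23 to 0.26). Counted over the 42 members, libraries with R were wholly under isotype for 25 and wholly above for 5 (24.4% and 23.5% of all genes), and libraries with OF were wholly under for 28 and wholly above for 3 (20.5% and 18.1%). Compared within replicate numbers, 30 members were lower with R in both (32.8% of all genes) and 35 with OF (38.5%).

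R and OF themselves did not differ for any member by the test in TMD8. Between them, 0 members were called with edgeR (0.0% of all genes), with or without the block, and 3 had an unadjusted p under 0.05 (4.09% of all genes). DESeq2 also called 0. Still, 33 of 42 members were higher with R than with OF, with a median log2 difference of 0.19 (all genes 0.01). R libraries were wholly above OF libraries for 17 members and wholly below for 1, where all genes gave 22.5% and 23.5%. The widest difference was in SAMD9, an endosomal antiviral protein, with 103.7 and 114.6 CPM with R and 66.1 and 76.2 CPM with OF (0.62, SE 0.15, adjusted p = 0.733 by edgeR). Without the second replicates of OF and isotype, SAMD9, its neighbour SAMD9L and IFI44L were called higher with R (0.401% of all genes) and 0 lower (0.15%), by 0.72, 0.68 and 0.75 (SE 0.13, 0.13 and 0.21).

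In U2932, members shifted in both directions. With R, 21 of the 35 members tested were higher than with isotype, with a median of 0.12 (all genes −0.02), and with OF 17 of 35, with a median of −0.00 (all genes 0.01). R raised 5 members, BST2, IFITM2, IFIT2, IFI35 and MX2, which is 14.3% of those tested beside 5.19% of all 14635 genes, and lowered 1, GBP1 (2.86% beside 5.02%). OF raised BST2, IFITM2, IFIT2 and IFI35 (11.4% beside 5.9%) and lowered GBP1 (2.86% beside 5.21%). The replicate block gave the same counts of members, beside 5.32% and 5.12% of all genes with R and 6.09% and 5.35% with OF. Scaled by library size alone, 2 members were higher and 1 lower with either antibody. The 12 members not tested in U2932 had too few counts, namely IFIT1, HERC5, OASL, GBP4, DDX60, RSAD2, CMPK2, IFITM3, LY6E, IRF9, IFI44 and IFI44L.

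BST2 had 39.2 and 42.0 CPM with isotype, 59.2 and 67.6 CPM with R, and 65.0 and 61.0 CPM with OF. The antibodies overlapped each other and lay above isotype, with the same log2 change of 0.64 (SE 0.10) for R and OF and adjusted p-values of 2.74e-05 and 3.2e-05 by edgeR. IFITM2 had 1.66 and 1.93 CPM with isotype, 3.65 and 4.03 CPM with R, and 3.62 and 3.43 CPM with OF. This low-level gene roughly doubled, with changes of 1.10 (SE 0.24, adjusted p = 0.000982 by edgeR) and 0.98 (SE 0.24, adjusted p = 0.00314), and it was called in all 16 alternative fits of each comparison.

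IFIT2 had 1.12 and 0.920 CPM with isotype, 2.30 and 1.80 CPM with R, and 2.22 and 2.19 CPM with OF, with changes of 1.00 (SE 0.31, adjusted p = 0.0179 by edgeR) and 1.11 (SE 0.31, adjusted p = 0.00802). IFI35, a partner of NMI in the regulation of inflammation, had 8.64 and 7.23 CPM, then 10.9 and 12.9 CPM, then 13.4 and 11.7 CPM. It rose by 0.59 with R and 0.66 with OF (SE 0.15 for both, adjusted p = 0.00423 and 0.0015). MX2, which restricts retroviruses at the nuclear pore, had 37.7 and 39.5 CPM with isotype, 63.7 and 58.2 CPM with R, and 54.6 and 59.8 CPM with OF. It rose by 0.66 with R (SE 0.10, adjusted p = 1.99e-05) and missed the 1.5-fold limit with OF at 0.57 (SE 0.10, adjusted p = 0.000116). Some of these calls depended on single libraries. IFIT2 with R was not called without R replicate 1 (0.81, adjusted p = 0.156 by edgeR) or isotype replicate 2 (0.86, adjusted p = 0.108). IFI35 went under 1.5-fold with R without R replicate 2 or isotype replicate 2 (0.46 for both) and with OF without OF replicate 1 (0.56) or isotype replicate 2 (0.54). BST2 did so with R without R replicate 2 (0.55) and with OF without isotype replicate 1 (0.58).

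The one member lowered in U2932, GBP1, had 0.582 and 1.71 CPM with isotype, 0.561 and 0.371 CPM with R, and 0.584 and 0.338 CPM with OF. Isotype replicate 2, with 39 counts, stood far above the rest, while isotype replicate 1, with 13 counts, was close to the treated libraries of replicate 1. The changes of −1.30 (SE 0.51, adjusted p = 0.062 by edgeR) and −1.31 (SE 0.52, adjusted p = 0.0600) became −0.32 and −0.34 without that library (adjusted p = 0.777 and 0.776). The call with R was also lost without either R replicate (adjusted p = 0.11 and 0.317), and that with OF without OF replicate 2 (adjusted p = 0.3).

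**Figure D3:**
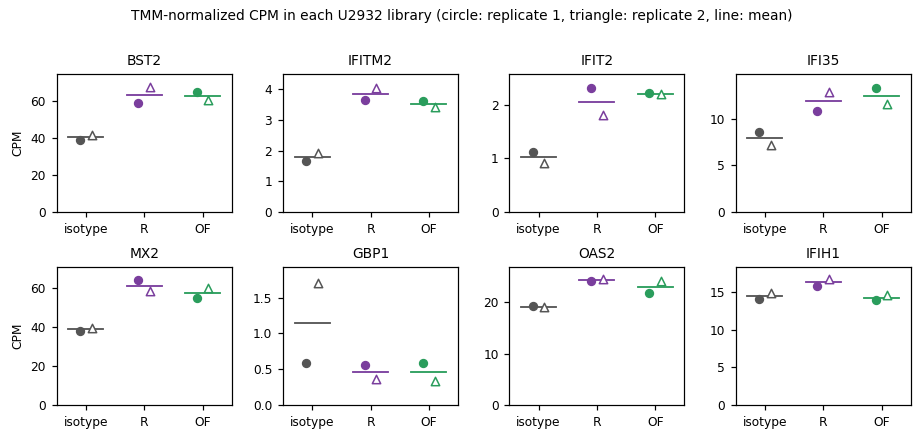
TMM-normalized CPM of 8 interferon-stimulated genes in each U2932 library, drawn as for TMD8. BST2, IFITM2, IFIT2, IFI35 and MX2 lie higher with both antibodies, GBP1 is high in isotype replicate 2 alone, and OAS2 lies above isotype and IFIH1 close to it, unlike in TMD8.

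Other members of U2932 moved by less than 1.5-fold but past the limit on the adjusted p. Counted without a fold limit, 12 members were higher and 3 lower with R (16.8% and 17.4% of all genes), and 13 higher and 2 lower with OF (18.7% and 17.8%). They include OAS1, with 27.7 and 25.6 CPM with isotype, 34.8 and 36.0 CPM with R, and 33.6 and 32.2 CPM with OF (0.41 and 0.31, SE 0.11 for both, adjusted p = 0.00417 and 0.0275 by edgeR), and IRF1, with 24.7 and 23.6 CPM, then 28.6 and 32.4 CPM, then 32.2 and 32.9 CPM (0.34 and 0.44). ISG15 was higher by 0.55 and 0.44 (SE 0.17, adjusted p = 0.017 and 0.0605), while IFI16 was lower, by 0.28 and 0.32 on the log2 scale (SE 0.09). R libraries were wholly above isotype for 19 of 35 members and wholly below for 6 (28.9% and 30.8% of all genes), and OF libraries for 16 and 6 (32.0% and 32.2%). R and OF differed for 0 members in U2932, where 1 of all genes was called (0.00683%), 0 members reached an unadjusted p under 0.05 (5.1% of all genes), DESeq2 called 0, the replicate block called 0 (0.0205%), and the median difference was 0.04.

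**Figure D4:**
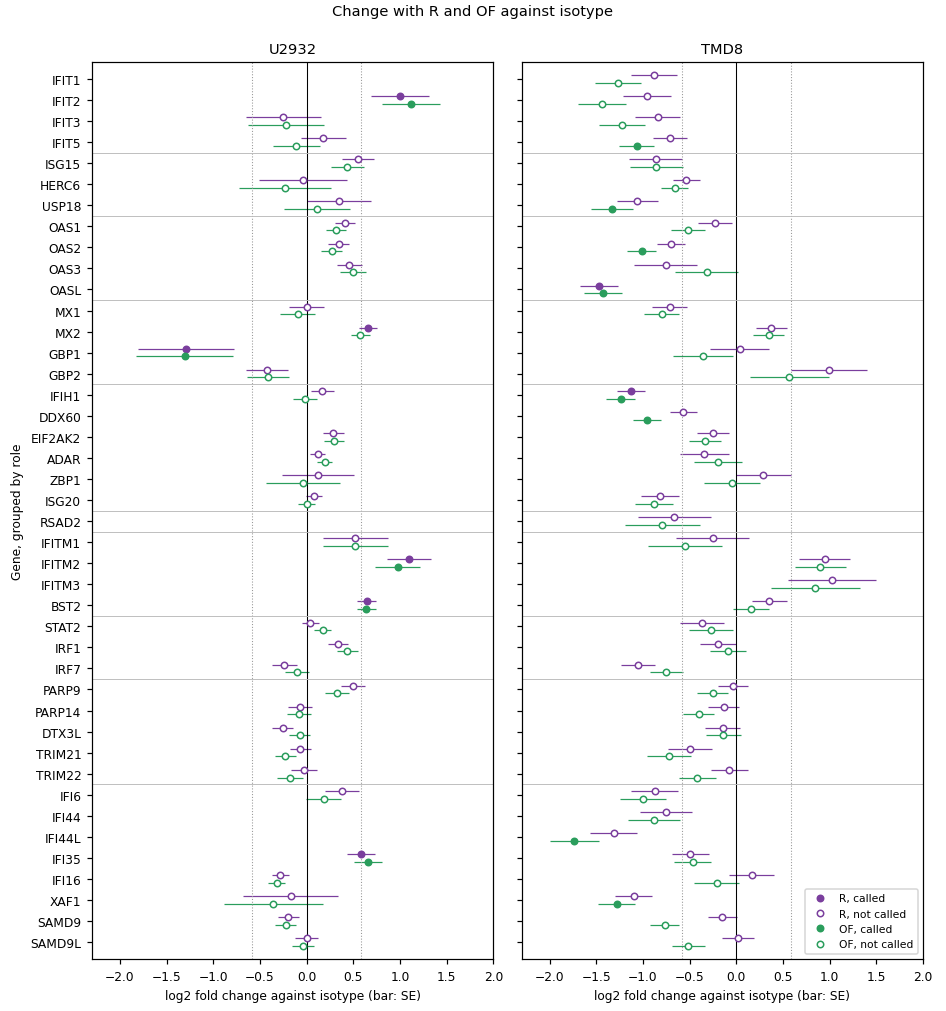
Log2 fold changes of the 42 members tested in TMD8, and of the 35 tested in U2932, with R (purple) and OF (green) against isotype, with bars of 1 SE, filled circles for called genes and dotted lines at 1.5-fold. In TMD8 most circles lie left of 0, and in U2932 they lie on both sides of it.

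The difference between the lines was tested as an interaction, the change in U2932 minus that in TMD8, in a fit of all 12 libraries. That fit gives each gene 1 estimate of spread, which assumes that replicates vary alike in both lines. Its adjusted p-values therefore cannot be set beside those of the fits within a line. For R it was called for 2 members, OAS2 and IFIH1, both higher in U2932, where 0.142% of all genes were called in that direction and 0.179% in the other. For OF it was called for 3, OAS2, IFIH1 and IFIT2 (0.0556% and 0.0494%). With the replicate block, 13 were called higher and 1 lower for R (2.43% and 2.32% of all genes), and 9 higher and 0 lower for OF (1.08% and 1.11%). The 9 were OAS1, OAS2, IFIH1, IFIT2, ISG15, ISG20, IRF7, IFI6 and IFI35.

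OAS2 had log2 changes of 0.34 and 0.27 with R and OF in U2932 and of −0.70 and −1.01 in TMD8, and its interactions were 1.05 (SE 0.17, adjusted p = 0.0511 by edgeR) and 1.28 (SE 0.17, adjusted p = 0.027). IFIH1 had changes of 0.17 and −0.02 in U2932 against −1.13 and −1.24 in TMD8, with interactions of 1.30 and 1.22 (SE 0.17 for both, adjusted p = 0.0386 and 0.0270). IFIT2 rose in U2932 and had changes of −0.96 and −1.44 in TMD8, with interactions of 1.96 for R (SE 0.39, adjusted p = 0.104) and 2.55 for OF (SE 0.39, adjusted p = 0.0516). Over the 42 members tested, the median interaction was 0.55 for R and 0.64 for OF (all genes 0.04 and 0.02). These include 7 members with too few counts for a test in U2932, of which RSAD2 and IFITM3 had 0 counts there, so that their interactions rest on TMD8. Over the other 35, the medians were 0.54 and 0.58. IFITM2 had nearly the same change in both lines, with interactions of 0.15 and 0.08 (SE 0.34 for both).

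**Figure D5:**
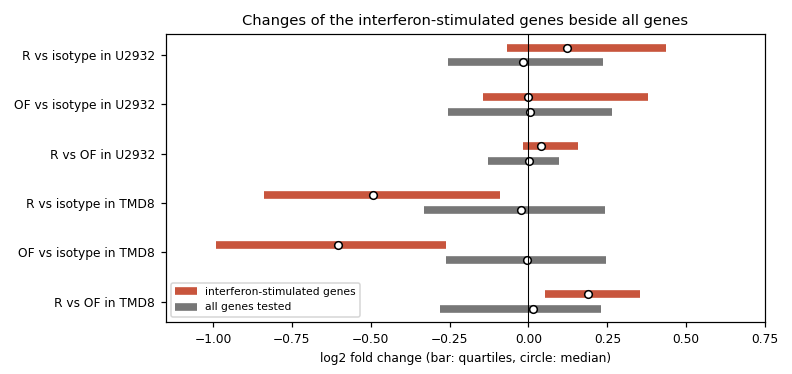
Quartiles (bars) and medians (circles) of log2 fold changes in 6 comparisons, for the interferon-stimulated genes (red) and all genes tested (grey). The medians of the members are −0.49 and −0.60 for R and OF against isotype in TMD8, beside −0.02 and −0.01 for all genes, and 0.12 and −0.00 in U2932, beside −0.02 and 0.01.

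Of 63 further genes of the pathway tested in TMD8, R lowered 1 and raised 0 (0.246% and 0.401% of all genes), and OF lowered 1 and raised 2 (0.344% and 0.471%), with medians of −0.07 and −0.06. SLFN5, an interferon-induced member of the Schlafen family, had 79.9 and 83.2 CPM with isotype, 25.8 and 28.7 CPM with R, and 21.0 and 22.7 CPM with OF. It fell by 1.58 and 1.89 on the log2 scale (SE 0.15 for both, adjusted p = 0.0697 and 0.0621 by edgeR), and its interactions with cell line were 1.26 and 1.49 (adjusted p = 0.0614 and 0.0360). The negative regulators SOCS3, which inhibits JAK kinases, and PTPN6, a phosphatase, rose with OF by 1.28 (SE 0.16, adjusted p = 0.0851) and 1.21 (SE 0.19, adjusted p = 0.0935). With the block, 11 of the 63 were called lower and 5 higher with R (5.96% and 5.04% of all genes), and 12 and 4 with OF (4.58% and 5.17%).

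In U2932, R raised 8 and lowered 2 of 60 further pathway genes (5.19% and 5.02% of all genes), and OF raised 9 and lowered 2 (5.9% and 5.21%), with medians of 0.10 and 0.19. The zinc-finger antiviral protein gene ZC3HAV1 had 42.6 and 46.0 CPM with isotype, 96.4 and 98.3 CPM with R, and 107.5 and 99.9 CPM with OF (1.14 and 1.23, SE 0.10 for both, adjusted p = 2.23e-09 and 6.31e-10 by edgeR). MYD88 rose by 0.83 and 0.78 (SE 0.10 for both) and TRIM25, which activates the RNA sensor RIG-I, by 0.85 with both (SE 0.10). SOCS3 rose by 1.11 with R and 2.08 with OF, and PTPN6 by 0.78 and 0.67. IRF8 fell by 0.69 and 0.60 on the log2 scale (SE 0.08 for both), and the chemokine CXCL11 by 1.77 and 1.30 (SE 0.33 and 0.31). Of the 9 receptor and kinase genes tested, 0 were called with R or OF in either line by edgeR, and with the block 1 was called higher with each antibody in TMD8 and 1 with OF in U2932.

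Members with and without an ISRE match near their start were also set side by side. In TMD8, the 23 tested members with a match had median changes of −0.66 with R and −0.80 with OF, with 20 and 21 of them negative, and the 9 without a match had −0.34 and −0.47, with 7 and 9 negative. In U2932, the medians were 0.17 and −0.02 for 17 members with a match and 0.04 and 0.17 for 9 without. With isotype, the median log2 difference of U2932 minus TMD8 was −2.90 for the 17 and −1.95 for the 9 that had enough counts within U2932 alone. The GC content of the members' transcripts, a property that can shift counts between libraries, had a median of 47.0%, against 48.5% for all genes tested in TMD8.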

How the data were processed

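RNA of 12 cultures (6 conditions, 2 replicates each) was sequenced, and the deposited table holds the raw counts of reads per gene that the authors made, without normalization or a filter, for 58884 genes. The submitters' processing notes name Trim Galore 0.6.0, cutadapt, FastQC, STAR 2.7.0e, DESeq2 1.26.0 and GRCh38. The annotation release and whether counting used strand are not given in the sources used here. The column names gave the library of each column, and 0 columns of other samples were present.

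Counts were analysed with edgeR 4.0.16 in R 4.3.3 (TMM, filterByExpr with a minimum of 10 counts, quasi-likelihood test), with 6 libraries per fit for comparisons within a line and 12 for comparisons between lines. Benjamini-Hochberg adjustment ran over 14635 genes in U2932, 14227 in TMD8 and 16187 over both. Calls needed an adjusted p under 0.10 (0.30 for R against OF in U2932) and 1.5-fold. With 2 replicates per condition, an exact permutation test could not reach 0.05, and p-values measure the spread between cultures of 1 line. The members, gene lists and tests were chosen with earlier results of these data known. Any member could be named, and other pathway genes where they were called in a comparison or encode a receptor, kinase, STAT or ligand. Symbols, positions, exon lengths and GC content came from GENCODE 29, and promoters from RefSeq.

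The protocol describes 2 separately kept cultures of each line that were then treated, and replicates of the same number were read as the same culture, which the labels do not state. The correlations of their deviations from the condition means in TMD8 were 0.22 for R and OF, 0.23 for R and isotype and 0.69 for OF and isotype. In U2932 they were −0.05, 0.10 and −0.00 for the same pairs. A replicate block was an alternative. Other alternatives were DESeq2 1.42.0, upper-quartile and library-size scaling, other count filters and limits, a GC content correction, other sets of libraries and leaving out each library. The edgeR fit without the block and DESeq2 were also run within each line on simulated counts with known changes. The simulation gave every gene of both lines the same variation between replicates and no shift of single libraries. It therefore does not test the fits under the spread seen in TMD8, and the other fits were not simulated. Values of 1 further pathway gene are not reported here.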

Additional observations from a re-analysis of the deposited data

Results flagged for a closer look

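The change against isotype differed between the lines by the interaction test for 5 results. For R, the change in U2932 minus that in TMD8 was 1.05 on the log2 scale for OAS2 and 1.30 for IFIH1. For OF, it was 1.28 for OAS2, 1.22 for IFIH1 and 2.55 for IFIT2. Each was called by edgeR in the fit of all 12 libraries, and over the 19 alternative fits these values stayed between 0.96 and 2.82, with OAS2 called in 12 fits for R and 15 for OF, IFIH1 in 13 and 14, and IFIT2 in 13 for OF. For R, the calls of members were lost without any 1 of the U2932 libraries of R and isotype or of the TMD8 libraries of R. For OF, they were lost without any 1 of the U2932 libraries of OF and isotype. Nearly all calls over all genes were lost in the same fits. Calls for OF also fell without TMD8 OF replicate 1, for members and over all genes. With 1 library left out, which leaves 1 in its group, the median interaction of the members tested was 0.48 to 0.66 for R and 0.58 to 0.68 for OF.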

How the results depend on the processing

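The numbers of members called moved with the processing, while no called change reversed its direction under any alternative. Calls over all genes moved too, also with 1 library left out. With R in TMD8 they were 92 in the fit as reported, 450 with the GC content correction, 553 with DESeq2, 1093 without a filter and 1565 with the block. With OF these were 116, 416, 425, 908 and 1387. For the interactions, the block took them from 52 to 770 for R and from 17 to 354 for OF. Without a fold limit, those in U2932 went from 1494 to 5005 with R and from 1625 to 5334 with OF. In U2932, the 6 calls with R became 15 without a fold limit, 3 with library-size scaling, 3 in one fit of all 12 libraries and 3 (without R replicate 2) to 7 (without isotype replicate 1) with 1 library left out. The 5 calls with OF became 15, 3, 3 with a GC content correction, 2 with that and the replicate block, and 3 with DESeq2. In TMD8, the 2 calls with R became 0 at an adjusted p under 0.05 and in the 4 libraries compared alone, 4 with at least 10 counts in every library, 8 with the GC correction, 14 with DESeq2, 17 without a filter and in one fit of all 12 libraries, 19 with the replicate block, 20 with the block and GC correction and 20 without the second replicates of OF and isotype. With 1 library left out they ranged from 0 to 6. The 8 calls with OF became 0, 0, 1 with library-size scaling, 14 with the GC correction, 16 with DESeq2, 19 without a filter, 20 in one fit of all libraries, 21 with the block, 22 with the block and GC correction, 22 without those 2 libraries, and 0 to 16 with 1 library left out. R against OF in TMD8 went from 0 to 3 without those 2 libraries. For the interactions, the 2 calls with R became 1 at an adjusted p under 0.05 and 8 with the block and GC correction. They became 10 without a filter, 10 with DESeq2 and 14 with the block. Calls over all genes in these 5 fits were 10, 412, 265, 407 and 770. The 3 with OF became 8 without a filter, 9 with the block, 9 with DESeq2, 10 with the block and GC correction, 18 without those 2 libraries, and 0 to 10. Causes were not tested. For the counts in one fit of all 12 libraries, the share over all genes is not given, so they describe the processing and not the members. The block changed no count of members in U2932 or between the lines with isotype. Library-size scaling moved the median of all genes with R from −0.02 to −0.12 in U2932 and to −0.16 in TMD8, and the calls over all genes with R in U2932 from 760 higher and 734 lower to 480 and 1186. Under upper-quartile, library-size and DESeq2 scaling, signs against isotype turned for MX1, SAMD9L, STAT2 and ISG20 with R in U2932 and for SAMD9L and GBP1 with R in TMD8, 0 of them called, and for 0 members with OF. Members with few counts, 12 of 47 in U2932, could not be tested at this depth.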
